A study of Mus musculus with 16 samples.

Results

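The mitochondrial carriers of the Slc25 family were followed through 16 RNA-seq libraries of mIMCD3 cells, an epithelial cell line from the inner medullary collecting duct of the mouse kidney. Members were all gene symbols in the count tables that begin with Slc25a and a number, without the pseudogene Slc25a5-ps, whose libraries held 0 to 4 counts each. They were 47 of 55367 symbols. Of these, 42 passed edgeR's filter on low counts and were tested among 19509 genes. The members that did not pass were Slc25a21, Slc25a31, Slc25a34, Slc25a41 and Slc25a54.

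Slc25 carriers are small proteins of mostly the inner mitochondrial membrane, which is otherwise closed to charged metabolites. Each carrier exchanges or imports a defined group of solutes, and so links the matrix to the cytosol. ATP leaves and ADP and phosphate enter, reducing equivalents are shuttled as malate and aspartate, and cofactors made in the cytosol reach the matrix enzymes that need them. The inner medulla of the kidney has little oxygen and a high and changing osmolality, so its cells make much of their ATP by glycolysis and take up organic osmolytes when the medium becomes hyperosmotic. Nrf2, encoded by Nfe2l2, is the transcription factor of the antioxidant response, and sulforaphane (SFN) activates it by modifying its inhibitor Keap1.

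Wild type (WT) cells were given the solvent DMSO or 10 µM SFN for 5 h and were then kept isosmotic or moved to hyperosmotic medium for 1 h or 6 h, which gave 6 groups. Cells without Nrf2 (Nrf2-/-) were given 10 µM SFN for 5 h and then kept isosmotic or stressed for 1 h, which gave the other 2 groups. Each group had 2 libraries from samples labelled as replicates, and all groups were the same cell line. The Nrf2-/- cells were a stable line made with CRISPR/Cas9 from a lentivirus and drug selection, and Nrf2-/- cells with DMSO were not analysed here, so genotypes were compared under SFN.

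Total counts lay between 34484296 and 50774875 per library, and the Slc25 family took 0.273% to 0.373% of them. Levels are given as CPM, reads of a gene relative to the scaled total of its library, in which 1 count is worth 0.0185 to 0.0312 CPM. Nfe2l2 lay between 64.0 and 149 CPM in the 12 WT libraries and between 11.0 and 11.6 CPM in the 4 Nrf2-/- libraries. Of 18 collecting duct markers, 12 were above 1 CPM in every WT library, but Aqp2, Aqp3, Aqp4, Avpr2 and Slc14a2, which define the mature principal cell or the medullary urea transport, were under 1 CPM throughout. The 2 Nrf2-/- libraries with SFN at 1 h stood apart: their biological coefficient of variation was 0.348, against 0.0395 to 0.128 in the other groups, and counts of calls and fitted log2 changes that rest on them are given with and without each. Whether the samples of a group came from separate cultures is not given in the labels, so p-values measure the spread between these samples.

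In unstressed WT cells the family was led by the carriers of oxidative phosphorylation. Compared per length (CPM per kb of exon, mean ± SD of the 2 isosmotic DMSO libraries), Slc25a5 and Slc25a4, the ADP/ATP carriers ANT2 and ANT1, stood at 262 ± 20.1 and 216 ± 20.5, and Slc25a3, the phosphate carrier, at 165 ± 14.5. These 3 genes together made up 45.3% to 57.6% of all Slc25 counts in each of the 16 libraries. The next were Slc25a24, a calcium-regulated ATP-Mg/phosphate carrier, at 75.9 ± 2.88 CPM per kb and Slc25a39, the glutathione carrier, at 74.8 ± 8.22, and these 2 levels did not differ beyond their spread. The oxoglutarate carrier Slc25a11 had 45.0 ± 3.92, the citrate carrier Slc25a1 33.5 ± 2.40 and the peroxisomal cofactor carrier Slc25a17 27.3 ± 2.26 CPM per kb. The aspartate/glutamate carrier Slc25a13 led the amino acid carriers at 19.8 ± 0.469 CPM per kb, and its paralogue Slc25a12 was at 7.80 ± 0.0604. Carriers known mainly from other tissues were low: the liver-enriched Slc25a47 had 1.12 ± 0.180 and the uncoupling-protein-like Slc25a27, known from brain, 1.18 ± 0.152 CPM per kb. Among the other lists, Slc25a33 led the pyrimidine nucleotide carriers at 8.30 ± 0.300 and Slc25a30, first described from kidney mitochondria, the uncoupling-protein-like carriers at 6.71 ± 0.259 CPM per kb. Slc25a46, an outer membrane protein of mitochondrial shape, led the carriers with no substrate named here at 11.1 ± 0.584 CPM per kb.

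**Figure D1:**
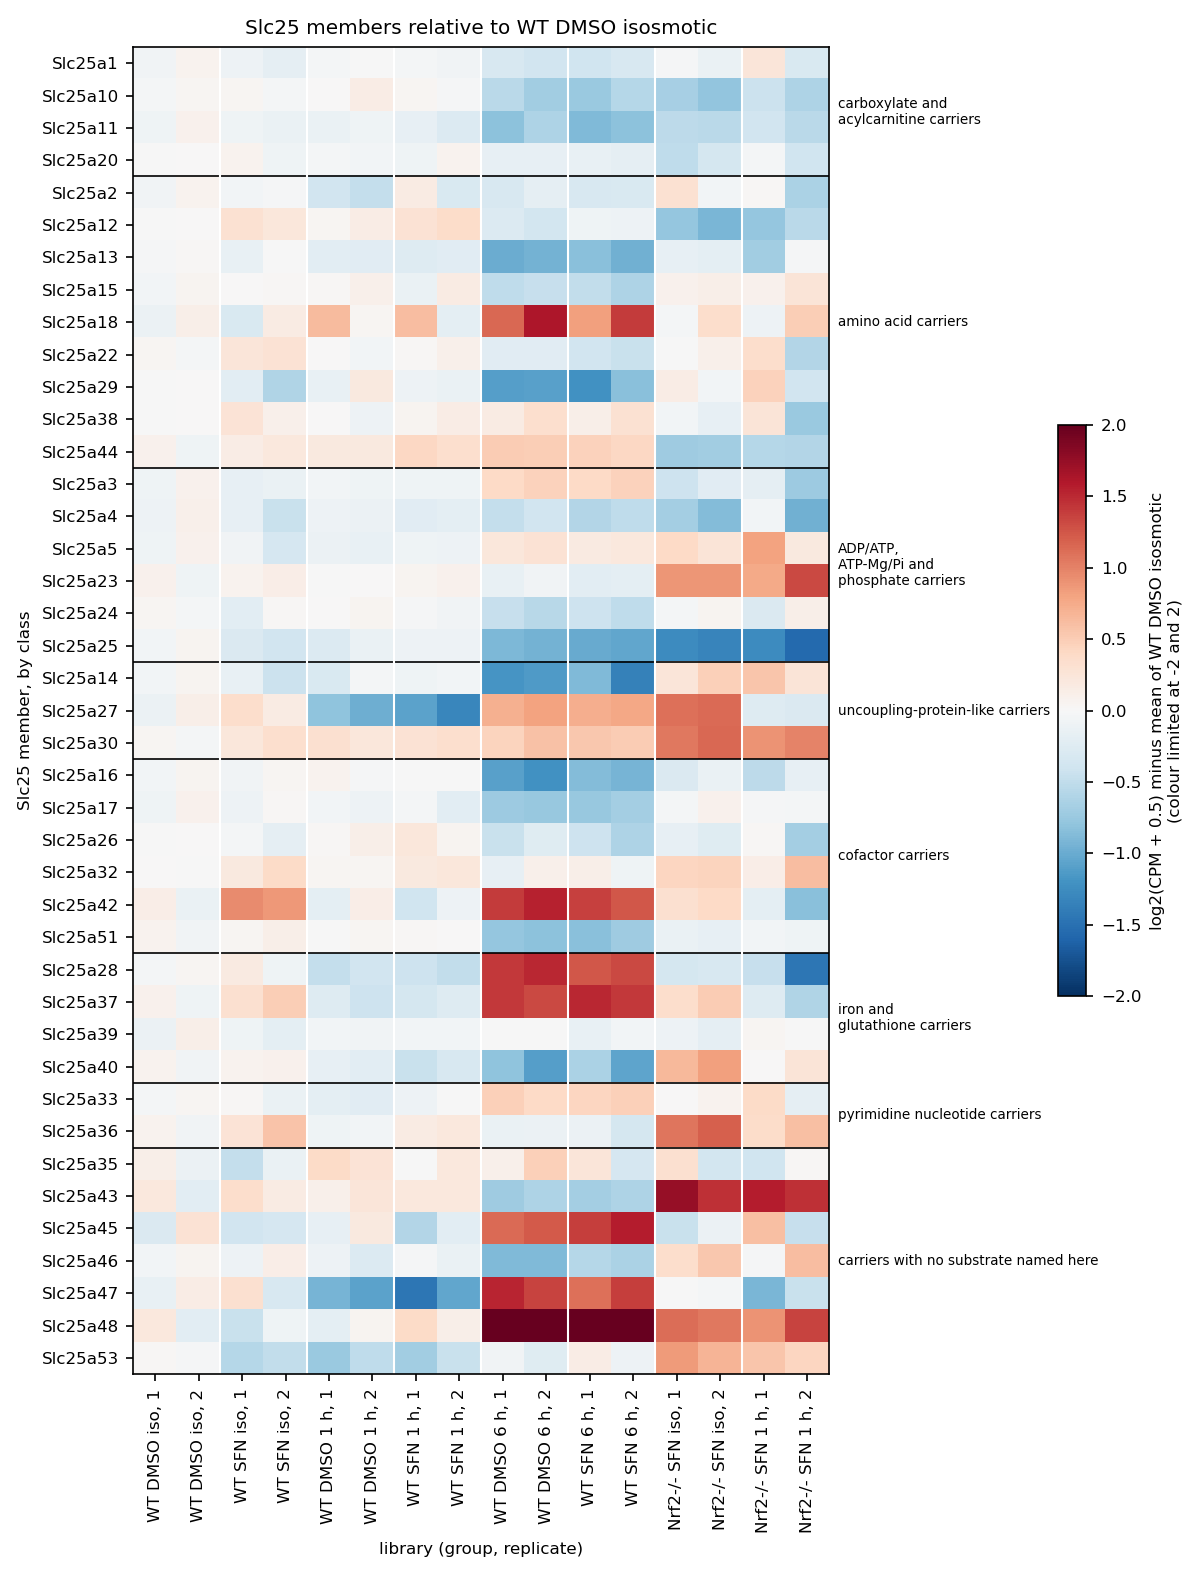
Level of 41 of the 42 tested Slc25 members (vertical, grouped by class) in each of the 16 libraries (horizontal), as log2(CPM + 0.5) minus the mean of the 2 WT DMSO isosmotic libraries; red is higher, blue lower, and colours stop at -2 and 2. The 4 WT libraries at 6 h form a block of strong colours in both directions. The 4 Nrf2-/- libraries differ from WT in members such as Slc25a12, Slc25a43 and Slc25a44, which were also called at 6 h with either pretreatment.

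The family changed most with 6 h of hyperosmotic stress. In DMSO-treated WT cells, 13 members were higher and 16 lower than under isosmotic conditions (edgeR, Benjamini-Hochberg adjusted p under 0.05). This is 69.0% of the 42 tested, while 45.9% of all genes tested passed the same threshold, 23.9% higher and 22.0% lower. The median log2 change was -0.18 over the members tested and 0.048 over all genes tested. With SFN, 12 were higher and 16 lower (47.6% of all genes tested, 24.7% higher and 22.9% lower). The 2 comparisons share no library. In both, 11 members rose, which is 84.6% of the risers with DMSO and 91.7% of those with SFN. Likewise 14 members fell in both, which is 87.5% of the fallers with either, and none was called in opposite directions. The matching shares over all genes tested were not computed, so whether this overlap is particular to the family was not tested.

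**Figure D2:**
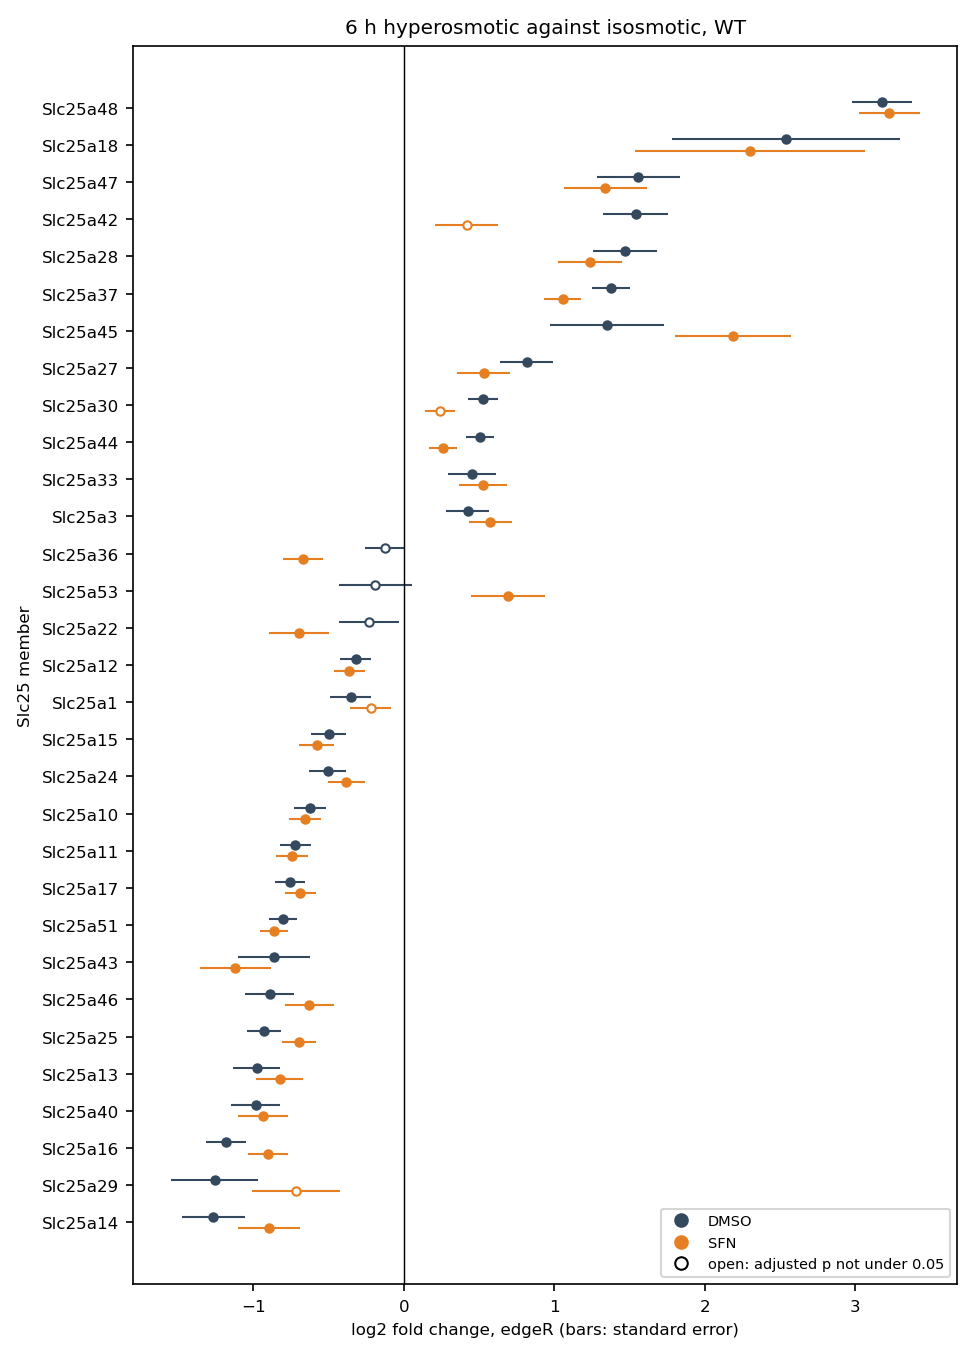
Log2 fold change of 6 h hyperosmotic against isosmotic WT cells (horizontal, edgeR, bars are the standard error) for 31 of the 32 Slc25 members called with DMSO (dark) or SFN (orange); open symbols did not pass the adjusted p of 0.05. Slc25a48 is farthest to the right with both pretreatments, Slc25a14 is lowest with DMSO, and 7 members, among them Slc25a42 and Slc25a53, have 1 open symbol.

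The member with the largest change was Slc25a48, a carrier listed here without a substrate and since linked to choline import into mitochondria (chr13:56438355-56474239, GRCm38). It had 8.08 and 5.86 CPM in the isosmotic DMSO libraries, 5.93 and 7.18 at 1 h and 60.0 and 65.8 at 6 h. With SFN the values were 4.93 and 6.45, 9.08 and 7.47 and 55.0 and 51.9 CPM. The 8 WT libraries without stress or at 1 h lay between 4.93 and 9.08 CPM, and each 6 h library was above all of them. More cells with Slc25a48 RNA and more of it per cell cannot be told apart in such bulk samples. The log2 change at 6 h was 3.18 ± 0.20 with DMSO (9.04-fold, edgeR adjusted p = 2.39e-08) and 3.22 ± 0.20 with SFN (adjusted p = 1.87e-08).

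Both mitoferrins, which bring iron into the matrix for heme and iron-sulfur clusters, rose at 6 h. Slc25a37 (mitoferrin-1, chr14:69241848-69285112) went from 69.9 and 61.3 CPM under isosmotic conditions to 175 and 165 CPM at 6 h with DMSO, and from 81.8 and 92.5 to 186 and 175 CPM with SFN. Slc25a28 (mitoferrin-2, chr19:43663801-43674881) went from 48.0 and 51.2 to 133 and 142 CPM with DMSO and from 56.1 and 46.5 to 118 and 124 CPM with SFN. The groups did not overlap for either gene, as for 75.6% of all genes tested with DMSO and for 39 of the 42 members with SFN. Log2 changes with DMSO were 1.38 ± 0.13 for Slc25a37 and 1.47 ± 0.21 for Slc25a28 (edgeR adjusted p = 8.07e-07 and 6.55e-05). Of the glutathione carriers in the same list, Slc25a39 had 190.1 and 222 CPM and then 204 and 204 CPM (log2 change -0.015 ± 0.095, adjusted p = 0.923). Its low paralogue Slc25a40 fell from 17.7 and 16.1 to 9.45 and 7.63 CPM (log2 change -0.98 ± 0.16, adjusted p = 0.000196).

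Since Slc25a48 and Slc25a28 rose together, the 250 bases before their RefSeq starts are shown (GRCm38.p6; chr13:56438105-56438354, plus strand, and chr19:43674882-43675131, minus strand), as examples of the promoters that were searched. They are written 5′ to 3′, and capitals would mark a match to TGACNNNGC, the core of the antioxidant response element, to TGGAAA, the core of the tonicity element of NFAT5, or to TGACGTCA, the cAMP response element. Neither window holds one on either strand, and both contain GGGCGG, the GC box, which was searched too and is left in lower case.
Slc25a48: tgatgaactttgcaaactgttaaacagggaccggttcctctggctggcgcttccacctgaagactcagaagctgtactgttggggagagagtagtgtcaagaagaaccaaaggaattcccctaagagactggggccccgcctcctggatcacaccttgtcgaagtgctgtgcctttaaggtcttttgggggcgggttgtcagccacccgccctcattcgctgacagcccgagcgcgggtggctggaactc
Slc25a28: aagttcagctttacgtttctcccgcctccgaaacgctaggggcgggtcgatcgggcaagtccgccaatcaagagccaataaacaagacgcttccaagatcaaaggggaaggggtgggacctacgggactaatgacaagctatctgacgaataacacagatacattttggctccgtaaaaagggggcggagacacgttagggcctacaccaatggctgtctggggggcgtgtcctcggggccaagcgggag
RefSeq windows were given for 36 of the 47 members, 46 windows in all. TGGAAA or its reverse complement occurred in 13.0% of these windows and in 18.6% of 32851 windows of all genes, TGACNNNGC in 19.6% and 10.2%, TGACGTCA in 4.35% and 1.55%, and GGGCGG in 69.6% and 32.7%. Of the members called at 6 h with DMSO, 9 risers and 14 fallers had a window, and TGGAAA was in 2 of each.

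Cofactor carriers changed in both directions. Slc25a42, which imports coenzyme A, rose from 6.27 and 5.08 to 15.7 and 17.3 CPM (log2 change 1.54 ± 0.21, edgeR adjusted p = 4.25e-05). Slc25a16, also tied to coenzyme A, fell from 29.2 and 31.4 to 13.9 and 12.8 CPM (log2 change -1.18 ± 0.13, adjusted p = 6.17e-06). Slc25a51, the NAD+ importer, fell from 57.4 and 52.4 to 32.0 and 30.8 CPM (log2 change -0.80 ± 0.094, adjusted p = 8.21e-06) and the peroxisomal Slc25a17 from 73.2 and 82.3 to 46.5 and 45.5 CPM (log2 change -0.76 ± 0.10). For each of these 4 genes the 6 h and isosmotic libraries did not overlap, as for 75.6% of all genes tested. Slc25a26 and Slc25a32 of the same class were not called.

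Carriers of dicarboxylates and of the malate-aspartate shuttle were lower at 6 h. The oxoglutarate/malate carrier Slc25a11 fell from 89.5 and 101 to 53.6 and 62.1 CPM (log2 change -0.72 ± 0.10, edgeR adjusted p = 5.77e-05) and the dicarboxylate carrier Slc25a10 from 78.4 and 82.5 to 55.0 and 49.5 CPM (log2 change -0.62 ± 0.11). The citrate carrier Slc25a1 had 68.8 and 76.1 and then 57.9 and 55.4 CPM, a small fall (log2 change -0.35 ± 0.14, adjusted p = 0.0463), and the acylcarnitine carrier Slc25a20 was not called. In all, 3 of the 4 carboxylate and acylcarnitine carriers tested fell with DMSO and none rose (22.0% of all genes tested fell and 23.9% rose). With SFN, 2 of the 4 fell and none rose (22.9% and 24.7% of all genes tested). Of the aspartate/glutamate carriers, Slc25a13 (citrin) fell from 74.0 and 76.5 to 37.6 and 38.8 CPM (log2 change -0.98 ± 0.16, adjusted p = 0.000144) and Slc25a12 (aralar) from 57.0 and 57.6 to 47.6 and 44.1 CPM (log2 change -0.32 ± 0.10, adjusted p = 0.0187). The 6 h libraries of both genes lay below their isosmotic ones, and for 75.6% of all genes tested these groups did not overlap.

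Among the other amino acid carriers, the ornithine carrier Slc25a15 fell from 33.7 and 36.1 to 24.3 and 25.1 CPM (log2 change -0.50 ± 0.12) and Slc25a29, a carrier of basic amino acids, from 5.36 and 5.37 to 2.23 and 2.25 CPM (log2 change -1.26 ± 0.29, edgeR adjusted p = 0.00261). Slc25a44, the carrier of branched-chain amino acids, rose from 59.1 and 52.0 to 79.4 and 78.2 CPM (log2 change 0.51 ± 0.091, adjusted p = 0.000383). The glutamate carrier Slc25a18 rose from 0.191 and 0.309 to 1.16 and 1.79 CPM, at a low level throughout, with 4 to 58 counts per library (log2 change 2.54 ± 0.76, adjusted p = 0.0132). Of 9 amino acid carriers tested, 2 rose and 4 fell with DMSO, while 23.9% of all genes tested rose and 22.0% fell.

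Slc25a29 lies head to head with Slc25a47, a liver-enriched carrier, on chromosome 12, with 162 bp between their annotated ends (chr12:108825873-108835883 on the minus strand and chr12:108836046-108856815 on the plus strand). They went opposite ways at 6 h. Slc25a47 rose from 2.98 and 3.74 to 10.5 and 9.29 CPM with DMSO (log2 change 1.56 ± 0.28, edgeR adjusted p = 0.000343) and from 4.29 and 2.58 to 7.69 and 9.56 CPM with SFN (log2 change 1.34 ± 0.28, adjusted p = 0.0011). Slc25a29 with SFN had 4.56 and 3.35 and then 2.03 and 2.77 CPM (log2 change -0.72 ± 0.29, adjusted p = 0.0561), so its fall passed the threshold with DMSO alone, and the difference between the pretreatments was not called. Slc25a45, another carrier listed without a substrate, rose from 1.41 and 2.32 to 4.58 and 4.94 CPM with DMSO (log2 change 1.35 ± 0.38, adjusted p = 0.00899). Slc25a46 fell from 58.2 and 62.6 to 32.5 and 32.5 CPM (log2 change -0.89 ± 0.17, adjusted p = 0.000481), and Slc25a43 from 2.98 and 2.10 to 1.33 and 1.45 CPM (log2 change -0.86 ± 0.24). Slc25a53 was called with SFN alone, from 1.56 and 1.65 to 2.85 and 2.34 CPM (log2 change 0.69 ± 0.25, adjusted p = 0.0308). With DMSO it went from 2.60 and 2.48 to 2.38 and 2.07 CPM (log2 change -0.19 ± 0.24). The pretreatments thus overlapped at 6 h and parted under isosmotic conditions, and the difference between their responses was not called.

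Of the nucleotide and phosphate carriers, Slc25a3 rose from 859 and 973 to 1202 and 1256 CPM (log2 change 0.42 ± 0.14, edgeR adjusted p = 0.0231). Slc25a4 had 475 and 543 and then 366 and 391 CPM (log2 change -0.43 ± 0.21, adjusted p = 0.109) and Slc25a5 409 and 455 and then 506 and 526 CPM (log2 change 0.26 ± 0.15, adjusted p = 0.193). The calcium-regulated ATP-Mg/phosphate carriers Slc25a25 and Slc25a24 fell. Slc25a25 went from 60.9 and 65.3 to 33.7 and 32.5 CPM (log2 change -0.93 ± 0.11, adjusted p = 1e-05) and Slc25a24 from 268 and 254 to 189.6 and 177 CPM (log2 change -0.51 ± 0.12), and Slc25a23 of the same group was not called. The pyrimidine nucleotide carrier Slc25a33 rose from 15.3 and 16.1 to 22.0 and 20.9 CPM (log2 change 0.45 ± 0.16, adjusted p = 0.0293). Its relative Slc25a36 was called with SFN, from 27.4 and 33.7 to 20.9 and 17.5 CPM (log2 change -0.67 ± 0.13, adjusted p = 0.00086). It was not called with DMSO, from 23.7 and 21.6 to 20.7 and 20.8 CPM (log2 change -0.13 ± 0.13). The pretreatments overlapped at 6 h, and the difference between their responses was not called. The uncoupling-protein-like Slc25a14 fell from 7.79 and 8.53 to 3.33 and 3.46 CPM (log2 change -1.27 ± 0.21, adjusted p = 0.000178), and Slc25a30 rose from 31.5 and 29.8 to 42.1 and 46.1 CPM (log2 change 0.52 ± 0.10, adjusted p = 0.000535). With SFN, Slc25a22, a glutamate carrier that was not called with DMSO, fell from 41.9 and 43.1 to 26.8 and 25.6 CPM (log2 change -0.70 ± 0.20, adjusted p = 0.0106). With DMSO it went from 36.2 and 34.4 to 29.9 and 30.1 CPM, and the difference between the responses was not called.

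With DMSO, leaving out 1 library left 22 to 26 calls. Those for Slc25a1 and Slc25a33 were lost without any of the 4 libraries compared. DESeq2 and RLE size factors (another scaling of the libraries) lost those for Slc25a1 and Slc25a12, and keeping genes with low counts lost those for Slc25a12 and Slc25a33. Lost too by leaving out 1 library were those for Slc25a3, Slc25a12, Slc25a18, Slc25a43 and Slc25a45 without isosmotic replicate 1 and that for Slc25a12 without isosmotic replicate 2. The calls for Slc25a3 and Slc25a43 were lost without 6 h replicate 1, and those for Slc25a3, Slc25a12 and Slc25a18 without 6 h replicate 2. With SFN, 20 to 23 calls were left, and that for Slc25a44 was lost without any of the 4. DESeq2 and RLE size factors lost that for Slc25a24, keeping genes with low counts those for Slc25a27, Slc25a44 and Slc25a53, and fitting the 4 libraries alone that for Slc25a53. Of the members named here, those for Slc25a12, Slc25a18 and Slc25a53 were lost without isosmotic replicate 1, and those for Slc25a24, Slc25a27, Slc25a33, Slc25a46 and Slc25a53 without isosmotic replicate 2. Those for Slc25a24, Slc25a27, Slc25a33 and Slc25a53 were lost without 6 h replicate 1, and those for Slc25a12, Slc25a18, Slc25a22, Slc25a24, Slc25a27 and Slc25a33 without 6 h replicate 2.

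**Figure D3:**
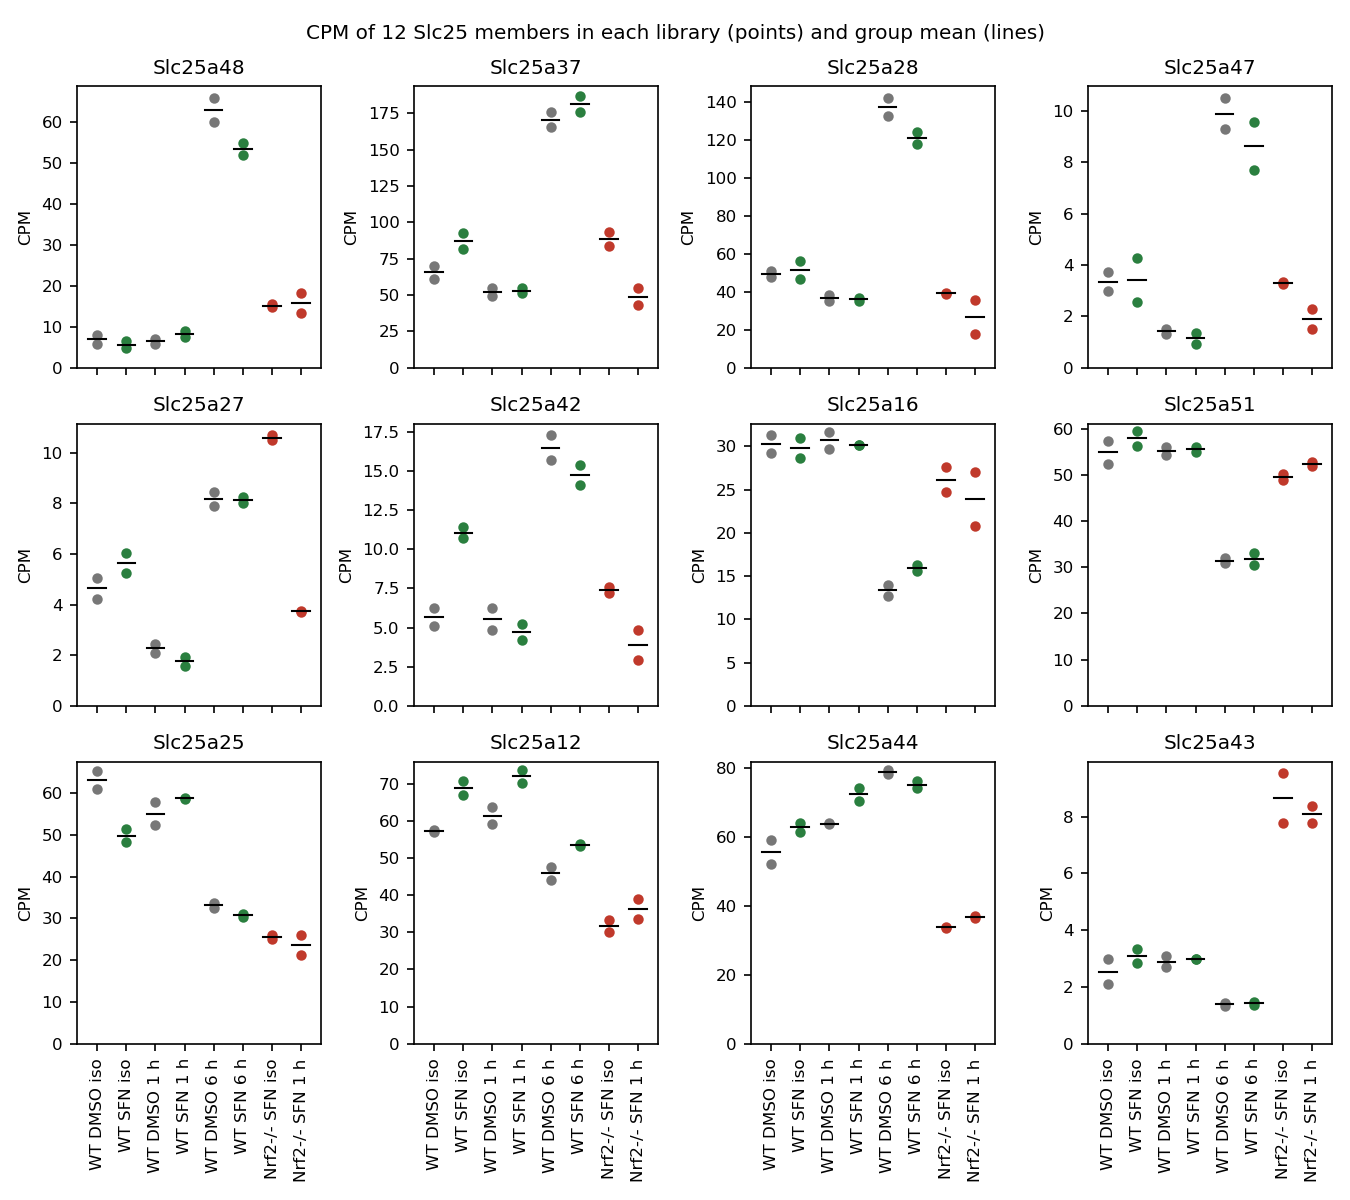
CPM (vertical, linear from 0, 1 scale per gene) of 12 Slc25 members in each library; points are libraries, lines are group means, grey is DMSO, green SFN in WT and red SFN in Nrf2-/-. Slc25a48, Slc25a37 and Slc25a28 are high in the 4 WT libraries at 6 h, Slc25a27 and Slc25a47 are lowest at 1 h, and Slc25a12 and Slc25a44 are lowest in the Nrf2-/- libraries.

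After 1 h the members that were called were all lower. With DMSO these were Slc25a27 and Slc25a47 (0 higher and 2 lower of 42; of all genes tested, 11.2% were called, 7.1% higher and 4.11% lower). With SFN they were Slc25a27, Slc25a37, Slc25a42 and Slc25a47 (0 higher and 4 lower, with 9.52% of all genes called, 5.94% higher and 3.58% lower). In Nrf2-/- cells with SFN they were Slc25a27, Slc25a36, Slc25a37, Slc25a40 and Slc25a42 (0 higher and 5 lower, with 7.17% of all genes called, 4.36% higher and 2.81% lower). Slc25a27 (chr17:43641891-43667214), an uncoupling-protein-like carrier, had 4.22 and 5.06 CPM under isosmotic conditions and 2.44 and 2.09 CPM at 1 h with DMSO. With SFN it had 6.03 and 5.24 and then 1.93 and 1.57 CPM, and in Nrf2-/- cells 10.5 and 10.7 and then 3.77 and 3.69 CPM. In each of the 3 series both stressed libraries were below both isosmotic ones, and 21, 22 and 14 of the 42 members did not overlap, in either direction. The log2 changes of Slc25a27 were -1.03 ± 0.19, -1.68 ± 0.19 and -1.51 ± 0.18 (edgeR adjusted p = 0.00249, 7.54e-05 and 0.000174). Without replicate 1 or 2 of the Nrf2-/- libraries at 1 h, the last change was -1.53 and -1.49. At 6 h it stood at 7.88 and 8.46 CPM with DMSO and 8.02 and 8.25 CPM with SFN, above the isosmotic libraries of the same pretreatment (log2 changes 0.82 ± 0.18 and 0.53 ± 0.18, adjusted p = 0.00171 and 0.0224).

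Slc25a47 also dipped at 1 h, to 1.52 and 1.32 CPM with DMSO (log2 change -1.24 ± 0.30, edgeR adjusted p = 0.0147) and 0.913 and 1.37 CPM with SFN (log2 change -1.57 ± 0.30, adjusted p = 0.00448), before the higher values at 6 h given above. The mitoferrins moved less: Slc25a37 stood at 54.8 and 49.1 CPM with DMSO (log2 change -0.34 ± 0.12, adjusted p = 0.103) and 51.3 and 54.5 CPM with SFN (log2 change -0.72 ± 0.12, adjusted p = 0.00213). Slc25a28 was at 35.4 and 38.1 and 36.9 and 35.3 CPM and was called in neither (adjusted p = 0.232 and 0.167). For Slc25a27, Slc25a28, Slc25a37 and Slc25a47, both libraries at 1 h were below and both at 6 h above the isosmotic pair, with either pretreatment, 4 of 42 members tested and 3.53% of all genes tested; the 1 h and 6 h comparisons share these isosmotic libraries. Measured from 1 h to 6 h, 11 members rose and 15 fell with DMSO (42.4% of all genes called, 20.4% higher and 22.0% lower), and Slc25a27 and Slc25a37 were among the risers (log2 changes 1.84 ± 0.19 and 1.71 ± 0.13).

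The call for Slc25a47 was lost with DMSO without isosmotic replicate 2 or either 1 h library, and with SFN without isosmotic or 1 h replicate 1. In Nrf2-/- cells, those for Slc25a40 and Slc25a42 were lost without either isosmotic library and that for Slc25a36 without isosmotic replicate 2. In this comparison, 14 and 16 members were called without replicate 1 and 2 of the 1 h pair and 0 when the 4 libraries compared were fitted alone. In a fit of the 12 WT libraries, 6 members were called at 1 h with DMSO and 8 with SFN (22.9% and 18.3% of all genes called), and 2 of each were higher.

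SFN alone changed 1 member in WT cells. Slc25a42, the coenzyme A carrier (chr8:70184340-70212305), had 6.27 and 5.08 CPM in isosmotic DMSO libraries and 11.4 and 10.7 CPM with SFN (log2 change 0.96 ± 0.21, edgeR adjusted p = 0.0255). Of all genes tested, 2.84% were called, 1.09% higher and 1.76% lower. Both SFN libraries were above both controls, but the 2 groups did not overlap for 21 of the 42 members tested. The matching share over all genes tested is not given here. Under stress, the groups overlapped at 1 h, with 4.87 and 6.23 CPM with DMSO and 4.17 and 5.25 CPM with SFN. At 6 h both SFN libraries, at 15.4 and 14.1 CPM, were below both DMSO libraries, at 15.7 and 17.3 CPM. Here 15 of the 42 members did not overlap, in either direction. The test of whether the SFN effect differed from the isosmotic one gave log2 differences of -1.19 ± 0.31 at 1 h and -1.12 ± 0.30 at 6 h (adjusted p = 0.147 and 0.137). The next members by adjusted p were Slc25a37, with 69.9 and 61.3 CPM against 81.8 and 92.5 CPM, and Slc25a36, with 23.7 and 21.6 CPM against 27.4 and 33.7 CPM (adjusted p = 0.105 and 0.108). At 1 h and 6 h edgeR called 0 members for SFN against DMSO (0.0923% and 0.041% of all genes tested were called). The counts were 1 and 1 at an unadjusted p under 0.05 and 0 and 0 by DESeq2. The 3 tests of a difference between responses also gave 0 members by edgeR (0.559%, 0.759% and 0.123% of all genes were called), with 5, 3 and 2 at an unadjusted p under 0.05 and 1, 1 and 0 by DESeq2.

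The call for Slc25a42 with SFN was lost when any 1 of the 4 isosmotic WT libraries was left out. When the 12 WT libraries were fitted without the Nrf2-/- libraries, 10 members were called with SFN under isosmotic conditions, with 15.2% of all genes called.

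Between genotypes, both with SFN, 10 members were higher and 8 lower in Nrf2-/- than in WT isosmotic cells (34.1% of all genes tested were called, 15.7% higher and 18.4% lower). After 1 h of stress, 8 were higher and 5 lower (31.5%, with 15.3% higher and 16.2% lower). These comparisons share no library, but both set the same Nrf2-/- line against the same WT cells, so they are not independent tests of Nrf2 loss. All 8 risers and all 5 fallers at 1 h were among those called under isosmotic conditions, where they made up 80.0% and 62.5%. For all genes tested, this overlap was not computed. The SFN response marker Nqo1 was at 5.05 to 7.38 CPM in WT libraries with SFN and at 0 to 0.255 CPM in the Nrf2-/- libraries. Slc7a11, the cystine transporter, was at 5.57 to 8.67 CPM in WT libraries with DMSO, 13.4 to 41.5 CPM in WT libraries with SFN and 49.3 to 103 CPM in Nrf2-/- libraries.

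**Figure D4:**
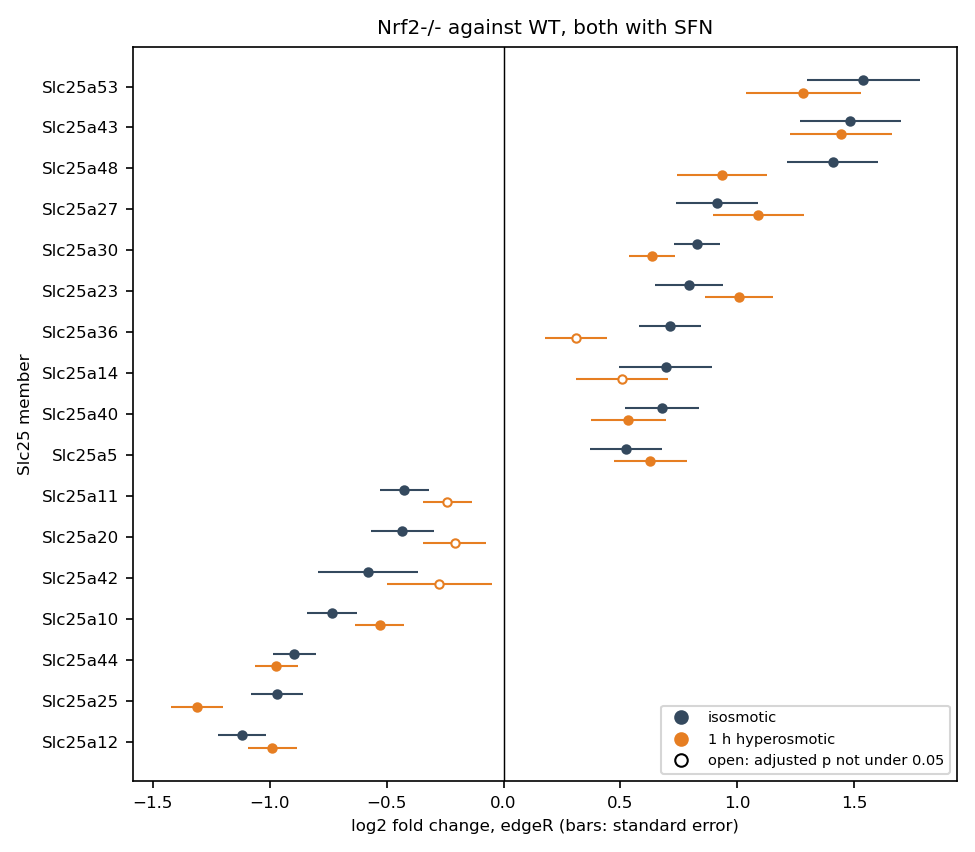
Log2 fold change of Nrf2-/- against WT cells, both with SFN (horizontal, edgeR, bars are the standard error), for 17 of the 18 Slc25 members called under isosmotic conditions (dark) or after 1 h of hyperosmotic stress (orange); open symbols did not pass the adjusted p of 0.05. The 2 conditions give the same sign for all members shown, with Slc25a12, Slc25a25 and Slc25a44 lowest in both; Slc25a53, Slc25a43 and Slc25a48 are highest under isosmotic conditions and Slc25a43, Slc25a53 and Slc25a27 at 1 h.

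Of 9 amino acid carriers tested, Slc25a12 and Slc25a44 were lower in isosmotic Nrf2-/- cells, and so were 3 of the 4 carboxylate and acylcarnitine carriers, while 18.4% of all genes tested were lower. Slc25a12 (aralar, chr2:71271063-71367749) had 70.6 and 67.1 CPM in isosmotic WT and 33.3 and 30.1 CPM in Nrf2-/- libraries, and 70.2 and 73.8 against 33.5 and 39.1 CPM at 1 h. Slc25a44, of branched-chain amino acids, had 61.4 and 64.1 against 33.6 and 33.9 CPM and 74.2 and 70.3 against 37.1 and 36.6 CPM. For both genes every Nrf2-/- library was below every WT library, with isosmotic log2 changes of -1.12 ± 0.10 and -0.89 ± 0.092 (edgeR adjusted p = 1.01e-06 and 2.93e-06). With SFN, the isosmotic WT and Nrf2-/- libraries did not overlap for 66.2% of all genes tested. The dicarboxylate carrier Slc25a10 had 82.5 and 78.5 against 50.4 and 46.4 CPM (log2 change -0.73 ± 0.11, adjusted p = 8.5e-05), and Slc25a11 and the acylcarnitine carrier Slc25a20 had log2 changes of -0.42 ± 0.10 and -0.43 ± 0.13 (adjusted p = 0.00531 and 0.0214). Of the cofactor carriers, Slc25a42 was lower at 7.20 and 7.58 CPM against 11.4 and 10.7 CPM (log2 change -0.58 ± 0.21, adjusted p = 0.0471). No member of these 3 classes was called higher, while 15.7% of all genes tested were.

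The ATP-Mg/phosphate carriers parted. Slc25a25 had 51.5 and 48.2 CPM in isosmotic WT and 25.9 and 25.0 CPM in Nrf2-/- libraries, and 58.7 and 58.8 against 26.1 and 21.3 CPM at 1 h (log2 changes -0.97 ± 0.11 and -1.31 ± 0.11, edgeR adjusted p = 9.08e-06 and 5.29e-07). Slc25a23 had 29.8 and 30.9 against 52.6 and 52.5 CPM, and 29.5 and 30.2 against 48.2 and 71.7 CPM at 1 h (log2 changes 0.79 ± 0.15 and 1.01 ± 0.15, adjusted p = 0.000652 and 9.71e-05). Without replicate 1 or 2 of the Nrf2-/- libraries at 1 h, the log2 change at 1 h was -1.46 and -1.17 for Slc25a25 and 1.28 and 0.69 for Slc25a23. Slc25a25 was therefore lower and Slc25a23 higher in each Nrf2-/- library than in each WT library with SFN. Slc25a5 had 412 and 343 against 571 and 516 CPM (log2 change 0.53 ± 0.15, adjusted p = 0.016), and Slc25a4 452 and 371 against 318 and 279 CPM (log2 change -0.46 ± 0.21, adjusted p = 0.1).

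Because these paralogues parted, 1 window of 250 bases before a RefSeq start of each is shown, 5′ to 3′, with the motif match in capitals (GRCm38.p6, minus strand). Each gene has more than 1 window, and only windows that hold a match were considered for printing. In the window of Slc25a25 (chr2:32424067-32424316) the capitals mark TGACGTCA, the cAMP response element. In that of Slc25a23 (chr17:57059864-57060113) they mark the reverse complement of TGACNNNGC, the antioxidant response element core. TGACNNNGC or its reverse complement also occurs in windows of Slc25a25 that are not shown, so these letters do not separate the 2 genes.
Slc25a25: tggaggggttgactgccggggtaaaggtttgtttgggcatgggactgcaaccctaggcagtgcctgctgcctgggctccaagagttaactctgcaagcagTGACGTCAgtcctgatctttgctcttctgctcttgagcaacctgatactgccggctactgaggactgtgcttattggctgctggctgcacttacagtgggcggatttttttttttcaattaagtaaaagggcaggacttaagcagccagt
Slc25a23: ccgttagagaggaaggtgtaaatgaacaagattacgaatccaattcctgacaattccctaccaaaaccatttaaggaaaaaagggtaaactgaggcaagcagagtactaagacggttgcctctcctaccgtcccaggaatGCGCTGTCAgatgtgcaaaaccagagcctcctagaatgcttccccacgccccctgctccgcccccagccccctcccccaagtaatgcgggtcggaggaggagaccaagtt
A match to these letters is a description of the sequence, and binding was not measured here.

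The 3 uncoupling-protein-like carriers among the members were all higher in isosmotic Nrf2-/- cells, while 15.7% of all genes tested were higher. The related and more abundant Ucp2, left out of the members by its symbol, was lower, at 105 and 104 CPM against 271 and 275 CPM in WT. Slc25a30 had 36.0 and 38.8 CPM in WT and 64.2 and 68.3 CPM in Nrf2-/- libraries (log2 change 0.83 ± 0.10, edgeR adjusted p = 1.21e-05). Slc25a27 had 6.03 and 5.24 against 10.5 and 10.7 CPM (log2 change 0.91 ± 0.18, adjusted p = 0.000941) and Slc25a14 7.29 and 5.91 against 9.78 and 11.5 CPM (log2 change 0.69 ± 0.20, adjusted p = 0.0137). The WT and Nrf2-/- libraries did not overlap for any of the 3, as for 66.2% of all genes tested. Of carriers listed without a substrate, Slc25a43 had 3.35 and 2.85 against 9.53 and 7.79 CPM (log2 change 1.48 ± 0.22, adjusted p = 8.71e-05) and Slc25a53 1.56 and 1.65 against 4.95 and 4.38 CPM (log2 change 1.54 ± 0.24, adjusted p = 0.000173). Slc25a48 had 4.93 and 6.45 against 15.5 and 14.8 CPM (log2 change 1.41 ± 0.20, adjusted p = 5.44e-05), so its Nrf2-/- level without stress lay between the isosmotic and 6 h levels of WT cells. The pyrimidine nucleotide carrier Slc25a36 had 27.4 and 33.7 against 48.1 and 52.2 CPM (log2 change 0.71 ± 0.13), and the glutathione carrier paralogue Slc25a40 17.7 and 17.9 against 26.8 and 30.1 CPM (log2 change 0.68 ± 0.16). Slc25a39, the abundant glutathione carrier, was at 195 and 180.1 CPM in WT and 191 and 181 CPM in Nrf2-/- libraries (log2 change -0.0094 ± 0.095, adjusted p = 0.989).

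Under isosmotic conditions, the call for Slc25a42 was lost without any of the 4 libraries compared, with RLE size factors and with the replicate number as a block, and that for Slc25a20 when genes with low counts were kept. Calls for Slc25a5 and Slc25a14 were lost without WT replicate 2, those for Slc25a5 and Slc25a20 without Nrf2-/- replicate 1, that for Slc25a20 without WT replicate 1 and that for Slc25a14 without Nrf2-/- replicate 2. Without the 1 h Nrf2-/- pair, 22 members were called. At 1 h, 28 members were called without Nrf2-/- replicate 1, 19 without replicate 2 and 4 when only the 4 libraries compared were fitted. Of the members named here, the call for Slc25a40 was lost at 1 h without either WT library or Nrf2-/- replicate 2. The summed level of 5 proximal tubule markers moved with genotype, from 9.06 to 27.5 CPM in WT to between 2.50 and 5.74 CPM in Nrf2-/- libraries, and that of 5 fibroblast markers from 2.40 to 7.47 CPM to between 1.38 and 2.12 CPM; their part in these results was not tested. Slc34a1, Slc5a2 and Slc22a6 of the first list and Col1a2, Pdgfra, Pdgfrb and Dcn of the second were under 1 CPM in all libraries.

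Ratios between close relatives, taken per length within each library and chosen after their values were seen, show these shifts without the library total. The ratio of Slc25a4 to Slc25a5 was 0.813 and 0.834 in isosmotic DMSO libraries, 0.830 and 0.840 at 1 h and 0.506 and 0.520 at 6 h. With SFN it was 0.768 and 0.755, 0.746 and 0.766 and 0.485 and 0.504, and in Nrf2-/- cells 0.390 and 0.377 isosmotic and 0.453 and 0.368 at 1 h. The 8 WT libraries without stress or at 1 h thus lay between 0.746 and 0.840, the 4 WT libraries at 6 h between 0.485 and 0.520, and the 4 Nrf2-/- libraries between 0.368 and 0.453. The ratio of Slc25a23 to Slc25a25 went the other way, from 0.604 to 0.952 in the first 8 libraries to between 1.12 and 1.23 at 6 h, and was 2.74 to 5.01 in Nrf2-/- libraries. The ratio of Slc25a12 to Slc25a13 was 0.389 to 0.596 in the first 8 libraries, 0.589 to 0.715 at 6 h and 0.236 to 0.374 in Nrf2-/- libraries.

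**Figure D5:**
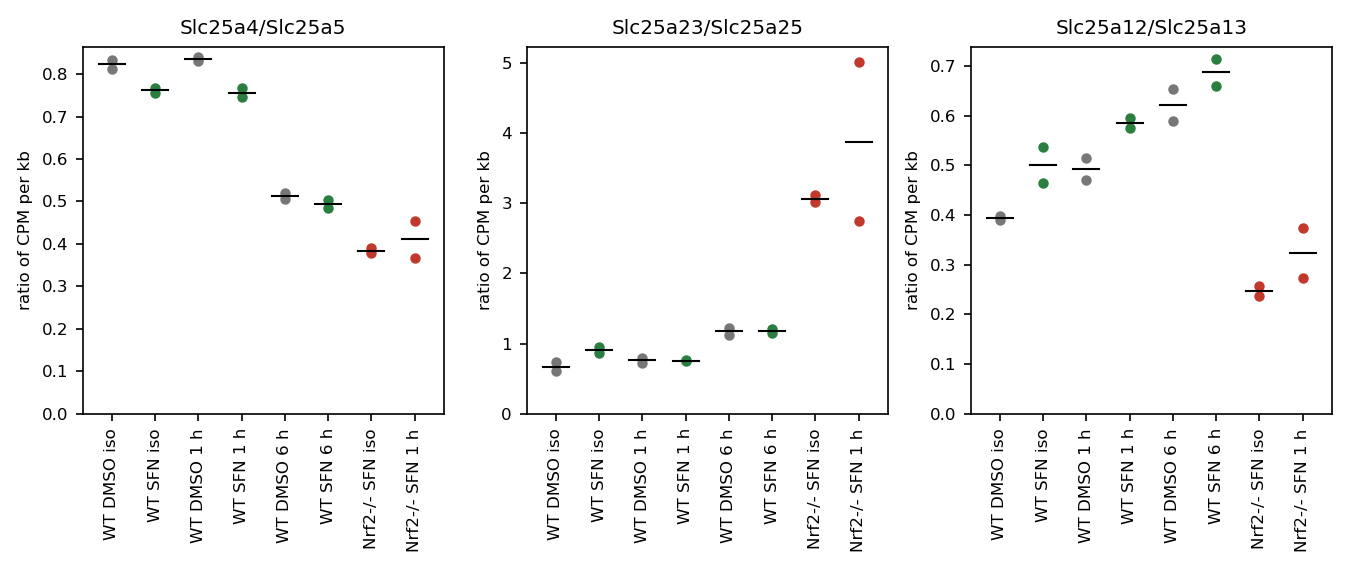
Ratio of CPM per kb (vertical, linear from 0) of 3 pairs of related carriers in each library (points) with the group mean (lines); grey is DMSO, green SFN in WT and red SFN in Nrf2-/-. Slc25a4/Slc25a5 drops at 6 h and in Nrf2-/- cells, Slc25a23/Slc25a25 is highest in Nrf2-/- cells, where the 2 libraries at 1 h are far apart, and Slc25a12/Slc25a13 is highest at 6 h and lowest in Nrf2-/- cells.

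Genes that carry, import or accompany these carriers were read from lists made with earlier results known. Of 20 further mitochondrial membrane transporters tested, 0 rose and 8 fell at 6 h with DMSO, where 23.9% of all genes tested rose and 22.0% fell. Among the 8 were the serine transporter Sfxn1 (log2 change -1.12 ± 0.18, edgeR adjusted p = 0.000129) and the calcium uptake regulator Micu2 (log2 change -0.79 ± 0.10). Of 12 genes of carrier import tested, 1 rose and 3 fell, and the share that fell was close to the 22.0% of all genes. The falls were those of Agk, Timm22 and Tomm70a (log2 changes -1.30 ± 0.16, -0.75 ± 0.14 and -0.58 ± 0.16). Agk and Timm22 are parts of the TIM22 complex that inserts carriers into the inner membrane, and Tomm70a is the receptor of carriers on the outer membrane. Values of the same list were higher at 6 h for Tomm20 (from 262 and 288 to 341 and 346 CPM) and Timm29 (from 39.0 and 40.3 to 50.3 and 47.6 CPM). Of 9 regulators of mitochondrial biogenesis tested, 4 rose and 3 fell (23.9% and 22.0% of all genes). Ppargc1a, a coactivator of biogenesis, was at 1.60 and 1.53 and then 6.46 and 7.16 CPM (log2 change 2.12 ± 0.30, adjusted p = 4.25e-05). Tfb1m, a mitochondrial rRNA methyltransferase, was at 5.60 and 4.97 and then 1.39 and 1.17 CPM (log2 change -2.04 ± 0.22). Of 6 mitochondrial one-carbon enzymes tested, 3 rose and 1 fell (23.9% and 22.0% of all genes), led by Aldh1l2 (log2 change 3.20 ± 0.45). The carrier-fold protein Ucp1, the uncoupling protein of brown fat, had 0 counts in each isosmotic DMSO library and 0.973 and 0.795 CPM at 1 h and 0.579 and 0.741 CPM at 6 h. Against a floor of 3 counts in each isosmotic library it was at least 12.8-fold higher at 1 h and at least 9.58-fold higher at 6 h. In isosmotic Nrf2-/- against WT cells with SFN, the related Ucp2 was lower, at 105 and 104 CPM against 271 and 275 CPM (log2 change -1.39 ± 0.094, adjusted p = 3.91e-08).

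Some counts may include reads of other genes. Exons of 12 members, 11 of them tested, overlap a gene on the other strand in GENCODE M21, among them Slc25a25 (Naif1), Slc25a37 (Gm27223 and Gm31748), Slc25a11 (Rnf167), Slc25a18 (Atp6v1e1), Slc25a23, Slc25a33, Slc25a46 and Slc25a10. Whether strand was used in counting is not given in the sources used here, so reads of these genes and their partners cannot be told apart. How reads shared between the similar Slc25a4 and Slc25a5, or with processed copies of Slc25a5, were counted is not given either, and their levels are uncertain to that extent.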

How the data were processed

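Total RNA of mIMCD3 cells was sequenced on an Illumina NovaSeq. The authors deposited raw counts per gene symbol, 1 table per library, from reads aligned to mm10; their methods name Hisat2, Samtools and FeatureCounts, and their processing notes Bowtie2, SAMtools and featureCounts. Tool versions, the annotation, the strand setting and how shared reads were treated are not given in the sources used here. Lines without a gene name (0 to 3 per library) were left out.

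Counts were analysed in R 4.3.3 with edgeR 4.0.16 (limma 3.58.1): filterByExpr, TMM normalization, 1 coefficient for each of 8 groups, and the robust quasi-likelihood F-test over 19509 genes, with Benjamini-Hochberg adjusted p under 0.05 as the call. Standard errors were derived from the F statistic. CPM used TMM-scaled totals, and lengths were exon unions of GENCODE M21 (GRCm38, the assembly of mm10), which may differ from the release the authors used. Depth was 34484296 to 50774875 counts per library; intervals from counts and floors cover counting error only. The scripts were tested on simulated data. Alternatives were DESeq2 1.42.0, RLE size factors, no filter, only the libraries compared, the replicate number as a block and leaving out each library of the groups compared. A fit of only the 12 WT libraries and a fit without both Nrf2-/- libraries at 1 h were tried too, the last chosen after seeing the data.

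Members and lists were chosen with earlier results of these data known. Members named with values were the 30 with the lowest adjusted p in any comparison and the highest per length in each class; Slc25a1, Slc25a4, Slc25a18, Slc25a20, Slc25a22, Slc25a26 and Slc25a32 fall outside this rule and were named after their values were seen. Sequences are from RefSeq (GRCm38.p6), and promoter windows that overlap an annotated untranslated region were not printed. Counts of members cover all of them, but 1 member is not reported here by name or value and is left out of the figures.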

Additional observations from a re-analysis of the deposited data

How the results depend on the processing

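No change of a called member reversed under any alternative. Of 126 calls of members over the comparisons, DESeq2 kept 123, RLE size factors 122, no filter on low counts 119, the libraries compared alone 111 and the replicate block 125; the 12 WT libraries kept 90 of 90, and leaving out 1 library kept 420 of 504. Counts of members called moved as follows. For SFN against DMSO under isosmotic conditions (1 in the reported fit), DESeq2 gave 5, the libraries compared alone 2 and the 12 WT libraries 10. SFN against DMSO at 1 h (0) gave 3 with the libraries compared alone. For 1 h against isosmotic with DMSO (2), the values were 4, 5 and 6, and with SFN (4) the 12 WT libraries gave 8. For Nrf2-/- against WT at 1 h (13) and 1 h against isosmotic in Nrf2-/- cells (5), the libraries compared alone gave 4 and 0. Each test of whether the SFN effect under stress differed from the isosmotic one (0 and 0) gave 1 with DESeq2, 1 with no filter, 1 with the libraries compared alone and 2 with the 12 WT libraries. The cause of these shifts was not tested.

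Leaving out 1 library gave 0 to 0 members for SFN under isosmotic conditions, 1 to 2 for 1 h with DMSO, 3 to 4 for 1 h with SFN, 22 to 26 and 20 to 23 for 6 h with DMSO and SFN, 23 to 25 for 6 h against 1 h, 15 to 16 for Nrf2-/- against WT isosmotic, 11 to 28 for the same at 1 h, 2 to 16 for 1 h in Nrf2-/- cells and 0 to 5 for the difference of the 1 h response between genotypes; a lone library was then assumed to vary like the other groups. Values over 1.5 times from the reported ones were 0 for SFN under isosmotic conditions without any of the 4 libraries compared and 1 for 1 h with DMSO without isosmotic replicate 2 or either 1 h library. The others came without a library of Nrf2-/- cells: at 1 h, 28, 14 and 5 without replicate 1 and 16 and 2 without replicate 2, and, for 1 h in Nrf2-/- cells, 3 and 2 without isosmotic replicate 1 and 2. Samples with the same replicate number did not deviate together (correlations of -0.0794 to 0.0411 over the comparisons of 2 groups; over all 28 pairs of groups they reached 0.123, with 1 over 0.1), so the numbers do not pair the samples; with the replicate number as a block, 29 members were called at 6 h with DMSO (29 without) and 17 for Nrf2-/- against WT isosmotic (18 without). With 2 libraries per group, a member with few counts, such as Slc25a18, Slc25a2 or Slc25a35, could have changed without being called.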
